A study of Marmota monax with 203 samples.

Results

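The 2′-5′-oligoadenylate synthetases (OAS1, OAS2, OAS3 and the OAS-like gene OASL), the double-stranded RNA-activated protein kinase PKR (gene EIF2AK2) and the RNA-editing adenosine deaminase ADAR were followed in the liver of woodchucks chronically infected with woodchuck hepatitis virus (WHV). These proteins bind double-stranded RNA, a by-product of viral replication, and their genes are classical targets of type I interferon. OAS enzymes answer it by making 2′-5′-linked oligoadenylates, a second messenger that leads to RNA decay, PKR answers it by phosphorylating the translation factor eIF2α, and ADAR changes adenosine to inosine in double-stranded RNA, which keeps the cell's own RNA from being sensed. The 6 genes were taken by their symbols from the 17587 genes listed, and every one was found and passed the filter on low counts at every week.

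Liver biopsies came from chronic WHV carriers of both sexes, all infected as neonates, which received placebo or recombinant woodchuck interferon-α (wIFN-α) subcutaneously, first at 20 μg and then at 100 μg. Biopsies of study weeks −3 (before treatment), 0, 3, 7, 11 and 15 (on treatment, 6 h after a dose) and 19 and 23 (after treatment) were compared, with the 20 μg dose at weeks 0 and 3 and the 100 μg dose at weeks 7, 11 and 15. Week 0 was the first dose of 20 μg and week 7 the first of 100 μg. The placebo group held 12, 12, 12, 12, 10, 9, 5 and 9 animals at these weeks and the wIFN-α group 11, 11, 9, 9, 8, 8, 6 and 6. Some animals left the study and others lacked a compared biopsy at single weeks. The placebo animal M1009, for example, had none at weeks 11, 15 and 19 but had one at week 23. The same animals recur from week to week, and M1004, whose viremia was low before treatment, entered no comparison.

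The 81 placebo and 68 wIFN-α biopsies held between 12072840 and 84805845 reads on genes (median 28754894). Levels are given as CPM, counts relative to the reads on genes of the biopsy, scaled with the TMM method. Hepatocyte markers were abundant in every group, with a median summed level between 76733 and 146288 CPM over the 10 markers, but single biopsies held less, down to 2755 CPM in the wIFN-α and 4893 CPM in the placebo group at week −3. Skeletal muscle genes took over 5% of all reads in 4 biopsies, namely F1018 (wIFN-α) with 12.9% and F1016 (placebo) with 12.7% at week −3, F1021 (placebo) with 10.9% at week 3, and F1023 (wIFN-α) with 7.32% at week 0. In 2 further biopsies several of the 6 genes stood apart from those of their group. The wIFN-α animal F1013 had placebo levels of all 6 genes at week 3 but not at any other treated week, and the placebo animal M1005 had high levels of OAS2, OAS3, OASL and ADAR at week 23, off treatment. Both biopsies were sequenced in 1 run each, to 27114331 and 26142672 reads on genes, and the main differences that rest on them are given with and without them.

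**Figure D1:**
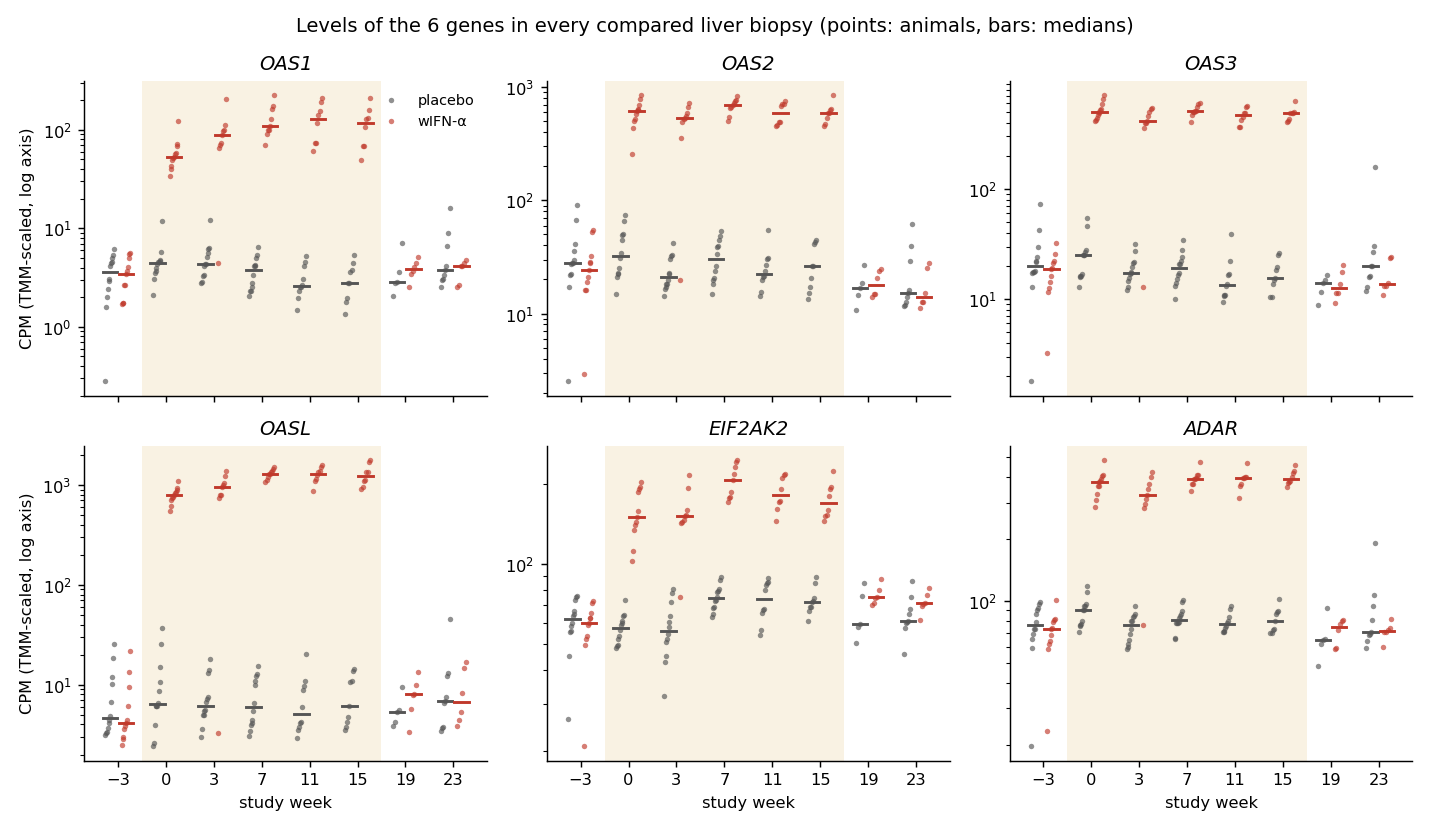
TMM-scaled CPM (log axis) of the 6 genes against study week. Each point is 1 animal (grey: placebo, red: wIFN-α), bars are group medians, and the shaded weeks are those on treatment. The red points lie above the grey ones at weeks 0, 7, 11 and 15 for every gene, 1 red point lies among the grey ones at week 3 (F1013), and 1 grey point lies far above the others at week 23 for OAS3 and OASL (M1005).

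OAS1 makes short oligoadenylates and was the rarest of the OAS transcripts in untreated liver. At week 0 its level ran from 2.11 to 11.9 CPM (median 4.45) in the 12 placebo animals and from 33.7 to 123 CPM (median 53.5) in the 11 animals that had received their first 20 μg of wIFN-α. At week 7, after the first 100 μg, the ranges were 2.06 to 6.52 (median 3.77) and 70.6 to 224 CPM (median 110.0). At week 15 they were 1.34 to 5.37 (median 2.79) and 49.5 to 213 CPM (median 117). The lowest treated animal was thus 2.82 times as high as the highest placebo animal at week 0 and 9.22 times at week 15, and the groups did not overlap at either week. The fold differences were 12.1 at week 0 (log2 3.60, SE 0.25), 17.4 at week 3 (log2 4.12, SE 0.40), 34.3 at week 7 (log2 5.10, SE 0.24), 41.8 at week 11 (log2 5.38, SE 0.30) and 37.9 at week 15 (log2 5.24, SE 0.34).

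OAS2, a mainly membrane-associated synthetase that makes longer chains, had a narrower range among treated animals. Week 0 levels ran from 14.96 to 74.4 CPM (median 32.4) on placebo and from 255 to 849 CPM (median 618) on wIFN-α. At week 7 they ran from 14.96 to 53.6 (median 30.1) and from 507 to 841 CPM (median 695), and at week 15 from 13.5 to 44.8 (median 26.2) and from 455 to 848 CPM (median 594). The groups did not overlap at these 3 weeks, and the treated medians stayed between 537 and 695 CPM at all 5 treated weeks. The log2 differences were 3.93 (SE 0.27), 4.34 (SE 0.37), 4.41 (SE 0.22), 4.52 (SE 0.24) and 4.45 (SE 0.27) at weeks 0, 3, 7, 11 and 15, or 15.3-fold at the first dose and 21.8-fold at the last.

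OAS3, the largest synthetase, which makes long chains, had the narrowest spread of the OAS genes among treated animals at weeks 0, 11 and 15. Week 0 levels ran from 13.0 to 54.3 CPM (median 25.0) on placebo and from 412 to 709 CPM (median 499) on wIFN-α. At week 15 they ran from 10.4 to 26.2 (median 15.5) and from 409.8 to 628 CPM (median 492.9). The highest treated animal was 1.53 times as high as the lowest at week 15 for OAS3, against 1.86 times for OAS2, 1.93 times for OASL and 4.30 times for OAS1. At week 7 OASL was narrower (1.43 times, against 1.501 for OAS3), and at week 3, with F1013, OAS2 was (36.7 against 42.1 times). Again the groups did not overlap, with a gap of 7.59 times at week 0 and 15.6 times at week 15 between the highest placebo and the lowest treated animal. The log2 differences were 4.31 (SE 0.23), 4.36 (SE 0.37), 4.70 (SE 0.18), 4.82 (SE 0.26) and 4.82 (SE 0.20) over the 5 treated weeks.

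OASL carries an OAS fold without the enzyme activity, ends in ubiquitin-like domains, and acts through the sensor RIG-I. It showed the widest separation of the 6 genes. At week 0 it ran from 2.41 to 36.9 CPM (median 6.38) on placebo and from 551 to 1100.0 CPM (median 799) on wIFN-α. By week 7 the ranges were 3.03 to 15.5 (median 6.01) and 1061 to 1517 CPM (median 1302), and at week 15 they were 3.53 to 14.2 (median 6.12) and 915 to 1763 CPM (median 1223). Even the highest placebo animal lay 14.9 times below the lowest treated animal at week 0 and 64.4 times below it at week 15. The fold differences were 71.3 at week 0 (log2 6.16, SE 0.45), 109 at week 3 (log2 6.77, SE 0.60), 167 at week 7 (log2 7.38, SE 0.32), 170.3 at week 11 (log2 7.41, SE 0.39) and 161 at week 15 (log2 7.33, SE 0.37).

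EIF2AK2 was already well expressed in untreated liver and moved least. At week 0 it ran from 48.4 to 73.3 CPM (median 57.9) on placebo and from 103 to 202 CPM (median 150.2) on wIFN-α, and at week 15 from 61.4 to 89.5 (median 72.2) and from 145 to 224 CPM (median 169). The groups were close but separate, the lowest treated animal being 1.40 times as high as the highest placebo animal at week 0 and 1.62 times at week 15. The log2 differences were 1.40 (SE 0.11), 1.38 (SE 0.16), 1.44 (SE 0.08), 1.32 (SE 0.11) and 1.26 (SE 0.10) over the treated weeks, between 2.39-fold and 2.71-fold.

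ADAR exists as a constitutive nuclear form and a longer, interferon-induced form, and the files give 1 value for the gene. At week 0 it ran from 70.4 to 118 CPM (median 90.5) on placebo and from 289 to 484 CPM (median 379) on wIFN-α, and at week 15 from 69.6 to 102 (median 80.3) and from 359.5 to 462 CPM (median 393). Treated animals formed a tight band at week 15, the highest being 1.28 times as high as the lowest, and the lowest being 3.53 times as high as the highest placebo animal. The log2 differences were 2.03 (SE 0.10), 2.05 (SE 0.19), 2.25 (SE 0.08), 2.30 (SE 0.08) and 2.31 (SE 0.09), between 4.09-fold and 4.96-fold.

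**Figure D2:**
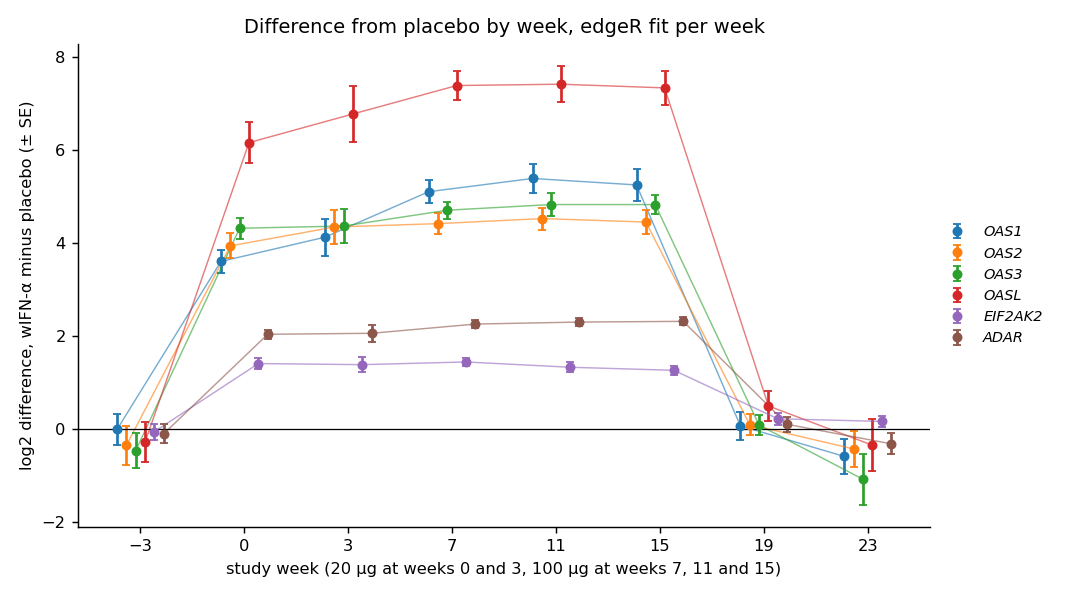
Log2 difference between wIFN-α and placebo animals (± SE, edgeR fit of each week) against study week, 1 colour per gene. The genes keep their order at the treated weeks, with OASL highest (6.16 to 7.41), ADAR at 2.03 to 2.31 and EIF2AK2 lowest (1.26 to 1.44), except that OAS1 lies below OAS2 and OAS3 at weeks 0 and 3 and above them from week 7 on. All lie near 0 at weeks −3 and 19.

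All 6 genes were called higher (edgeR quasi-likelihood test, Benjamini-Hochberg adjusted p under 0.05 and fold change above 1.5) at each of the 5 treated weeks, with adjusted p from 1.43e-16 (ADAR, week 7) to 1.72e-06 (EIF2AK2, week 3). Of all genes tested, 10.3% were called higher at week 0, 7.24% at week 3, 11.4% at week 7, 12.6% at week 11 and 13.4% at week 15, and 8.15%, 3.54%, 10.1%, 7.98% and 8.83% were called lower. Every treated animal lay above every placebo animal for all 6 genes at weeks 0, 7, 11 and 15, which was the case for 4.56%, 8.1%, 7.45% and 8.39% of all genes at these weeks. At week 3 the groups overlapped for all 6 genes because of F1013 alone. Only 0.387% of all genes were then without overlap, and without F1013 it was 4.29% of all genes and all 6 of these.

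F1013 at week 3 held 4.45 CPM of OAS1, 19.9 of OAS2, 12.8 of OAS3, 3.25 of OASL, 75.0 of EIF2AK2 and 76.5 CPM of ADAR. The other 8 wIFN-α animals held at least 64.6, 355, 358, 739, 143 and 285 CPM of the same genes. Each of the F1013 values was within the placebo range of that week. The listed RNA sensing genes were low in this biopsy too, with ZBP1 at 0.0293, TLR3 at 0.0584 and IFIH1 at 0.0792 times the median of the other treated animals, while MAVS was at 1.09 times. Whether the biopsy is that of another animal or time, or was taken after a missed or differently timed dose, was not tested. The same animal lay above every placebo animal for all 6 genes at weeks 0, 7, 11 and 15, with 43.2 CPM of OAS1 at week 0 and 70.6 CPM at week 7. Without it, the week 3 log2 differences were 4.28 for OAS1, 4.502 for OAS2, 4.52 for OAS3, 6.94 for OASL, 1.46 for EIF2AK2 and 2.18 for ADAR, and every call held.

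CPM cannot be compared between transcripts of different lengths, so levels of different genes were compared per kilobase, with the lengths that the deposited RPKM values imply. At week 0 the placebo medians were 11.7 CPM per kilobase for ADAR, 5.37 for EIF2AK2, 5.26 for OAS2, 3.72 for OAS3, 3.10 for OASL and 2.12 for OAS1. In placebo livers OAS2 and EIF2AK2 thus stood next to each other within the spread over animals. On wIFN-α at week 0 the order became OASL with 388, OAS2 with 100.2, OAS3 with 74.3, ADAR with 49.1, OAS1 with 25.5 and EIF2AK2 with 13.9 CPM per kilobase. OASL passed from the fifth place to the first, and EIF2AK2 from the second to the last. At week 15 OAS1 with 56.1 CPM per kilobase stood beside ADAR with 51.0, and their ranges overlapped. Reads of the related OAS genes could have been counted on one another where their transcripts are alike, which the deposited counts do not show.

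The next comparison was that of the last treated week, at 100 μg, with the first weeks, at 20 μg. All treated animals changed dose at the same time, so dose, time on treatment and the loss of animals cannot be told apart here. In 1 fit of all compared biopsies, the OAS1 difference was larger at week 15 than the mean of weeks 0 and 3 by 1.36 on the log2 scale (SE 0.39, adjusted p = 0.0385 by edgeR), and it was the only 1 of the 6 genes called, where 2.26% of all genes were. The others differed by 0.84 (OASL, SE 0.52), 0.46 (OAS3, SE 0.39), 0.28 (OAS2, SE 0.40), 0.24 (ADAR, SE 0.19) and −0.16 (EIF2AK2, SE 0.17), with adjusted p between 0.494 and 0.842. That fit took no account of biopsies sharing an animal. With the animal as a replicate block the OAS1 value was 1.25 (edgeR, adjusted p = 0.00812) or 1.504 (limma-voom, adjusted p = 0.00847). These 2 fits called 1163 and 986 of 16232 genes, against 367 without the block. The OAS1 call was lost in an edgeR fit of weeks 0, 3 and 15 alone (1.34, adjusted p = 0.0596). It was also lost in 7 of 11 edgeR fits that each left out 1 wIFN-α animal (1.30 to 1.40, adjusted p over the 11 fits 0.0268 to 0.0805). Those 7 animals were F1018, F1020, F1022, F1023, M1002, M1003 and M1012. Without only the week 3 biopsy of F1013, the OAS1 value was 1.28 (SE 0.37, adjusted p = 0.0404 by edgeR).

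Step by step, none of the 6 genes was called for week 3 minus week 0 (2.4% of all genes), week 7 minus week 3 (1.15%) or week 15 minus week 7 (0.0246%). At an unadjusted p under 0.05 the only member was OAS1 for week 7 minus week 3 (0.97, SE 0.43, adjusted p = 0.361), and limma-voom with the animal as a block called none either. Between week 0 and week 15, OAS1 was higher in 8 of 8 wIFN-α animals, by a median of 0.85 on the log2 scale (range 0.20 to 1.31), while it was higher in only 2 of 9 placebo animals (median −0.60). So part of the widening gap of OAS1 lay in the placebo group. OASL was likewise higher in 8 of 8 treated animals (median 0.60, range 0.16 to 0.95) and in 3 of 9 placebo animals (median −0.48). OAS2 and OAS3 were higher in 2 of 8 and 1 of 8 treated animals (medians −0.10 and −0.17). On placebo each was higher in 3 of 9 animals (medians −0.56 and −0.76). By these medians both fell more on placebo than on wIFN-α. EIF2AK2 was higher at week 7 than at week 0 in both groups, in 8 of 9 treated (median 0.34) and 12 of 12 placebo animals (median 0.42).

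More markers of T and NK cells were called at the later of these weeks. Of 10, 2 were called higher at week 0, 3 at week 3, 3 at week 7 (with 1 lower, beside 10.1% of all genes), 8 at week 11 and 9 at week 15, beside 10.3%, 7.24%, 11.4%, 12.6% and 13.4% of all genes. Their summed level on wIFN-α had a median of 104 CPM (41.3 to 154) at week 0 and 131 CPM (113 to 280.1) at week 15, against 81.2 (63.5 to 127) and 75.4 CPM (48.3 to 99.7) on placebo. In the tests of change, 0 of 10 were called for week 15 minus week 7 (0.0246% of all genes). For week 15 minus the mean of weeks 0 and 3, 0 of 10 were called (2.26% of all genes). Of the B and plasma cell markers, 3 of 5 tested were called higher at week 15, and 1 of 6 in the latter test. The part of these cells in the OAS1 difference was not tested. In a whole biopsy, fewer cells of a type and less RNA per cell cannot be told apart.

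**Figure D3:**
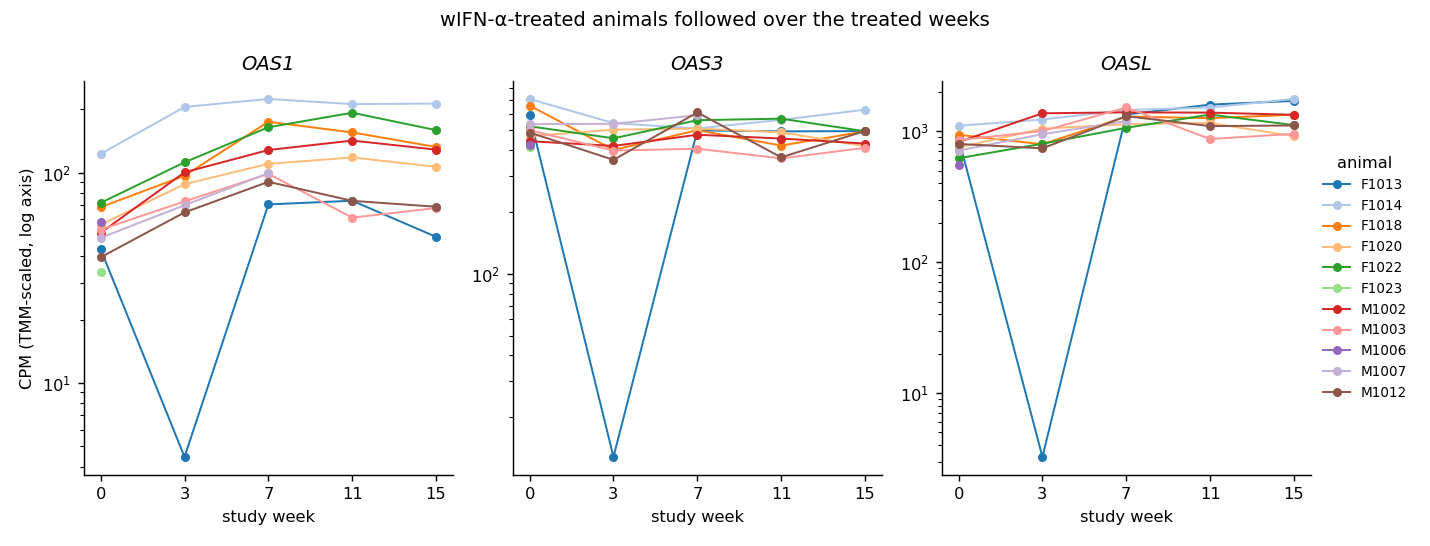
TMM-scaled CPM (log axis) of OAS1, OAS3 and OASL in each wIFN-α animal over the treated weeks (1 coloured line per animal). For OAS1 F1014 is on top at all 5 weeks (123 to 224 CPM). From week 7 to week 15 the OAS1 lines cross between F1018 and F1022 and among F1013, M1003 and M1012. For OAS3 and OASL lines cross too. F1013 drops to placebo level at week 3 in each panel.

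Treated animals had a similar order for OAS1 at weeks 7 and 15. F1014 was highest at each of the 5 treated weeks, with 123, 205, 224, 212 and 213 CPM, and F1022, F1018 and M1002 followed at week 7 with 164, 174 and 128 CPM and at week 15 with 159, 132 and 128 CPM. F1013, M1012 and M1003 were the lowest of the 8 animals seen at both weeks, with 70.6, 90.4 and 98.6 CPM at week 7 and 49.5, 68.8 and 67.8 CPM at week 15. Over these 8 animals the levels of weeks 7 and 15 had r = 0.96 and rho = 0.95 on the log2 scale (exact permutation p = 0.000298 and 0.00114, adjusted over 12 relations 0.00357 and 0.0137), and r = 0.90 without the 2 animals farthest from the week 7 median.

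The other 5 genes had r between 0.37 and 0.67 over the same treated animals, with adjusted p of at least 0.131 (exact permutation). In the 9 placebo animals seen at both weeks OAS2 had rho = 0.83 (exact permutation p = 0.00827, adjusted 0.0496) but r = 0.75 with an adjusted p of 0.131, and r = 0.52 without the 2 farthest animals. OAS1 had r = 0.49 in these placebo animals (adjusted p = 0.234) and r = 0.90 without the 2 farthest. The remaining placebo relations had adjusted p of at least 0.131. Whether OAS1 differed from the other genes in this was not tested, these relations were chosen after the levels had been seen, and the lanes hold too few animals for a value within a lane. Off treatment the OAS1 order was another one, F1014 being the lowest of 6 animals at week 19 (2.56 CPM) and F1013 the highest (5.09 CPM).

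Sex did not separate the response at this size of group. At week 0 no member passed the test of an interaction of sex and treatment (0% of all genes did), none had an unadjusted p under 0.05 in edgeR, and limma-voom called none. The estimates ran from −0.38 (OAS2, SE 0.50) to 0.66 (OAS1, SE 0.47) on the log2 scale, so differences of the size of the OAS1 value were within the error.

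Before treatment the arms had similar medians. At week −3 OAS1 ran from 0.279 to 6.23 CPM (median 3.60) in the placebo group and from 1.68 to 5.60 CPM (median 3.45) in the later wIFN-α group. OAS3 ran from 1.78 to 73.1 (median 19.8) and from 3.25 to 32.4 CPM (median 18.8), and OAS2 reached 91.9 CPM in the placebo and 54.3 CPM in the later wIFN-α group. The high placebo values of OAS2 and OAS3 were both those of F1021. The lowest OAS2, OAS3, EIF2AK2 and ADAR values of either arm belonged to F1016 and F1018, the 2 biopsies with the most skeletal muscle reads. None of the 6 genes was called (0% of all genes), with log2 differences from −0.47 (OAS3, SE 0.38) to −0.02 (OAS1, SE 0.33), and no unadjusted p under 0.05.

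After treatment had ended, the levels of both groups overlapped. At week 19 OAS3 was at 8.78, 11.7, 14.1, 14.9 and 16.4 CPM in the 5 placebo animals and ran from 9.20 to 20.5 CPM (median 12.6) in the 6 wIFN-α animals. OASL was at 3.88, 4.23, 5.39, 5.59 and 9.55 CPM on placebo and ran from 3.35 to 13.4 CPM (median 8.03) after wIFN-α. The highest treated animals lay above the 5 placebo animals, namely M1012 and F1014 for OAS3 (20.5 and 17.6 CPM) and OASL (13.4 and 9.90 CPM) and F1022 for EIF2AK2 (87.7 against at most 85.0 CPM on placebo). Groups overlapped for all 6 genes, and none of the 6 was called by edgeR, DESeq2 or limma-voom. Of all 14715 genes tested, edgeR and limma-voom called 0 and DESeq2 called 89. The largest difference was that of OASL, 0.49 on the log2 scale (95% interval −0.15 to 1.13), and that of OAS1 was 0.06 (−0.52 to 0.65). At week 23 again none of the 6 was called (0% of all genes by edgeR, 53 of 14956 by DESeq2). The OAS3 difference was −1.09 (SE 0.55, adjusted p = 0.330 by edgeR) with M1005 in the placebo group and −0.22 (SE 0.24) without it. OASL changed from −0.35 to 0.33 when this animal was left out, and ADAR from −0.32 to −0.09.

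**Figure D4:**
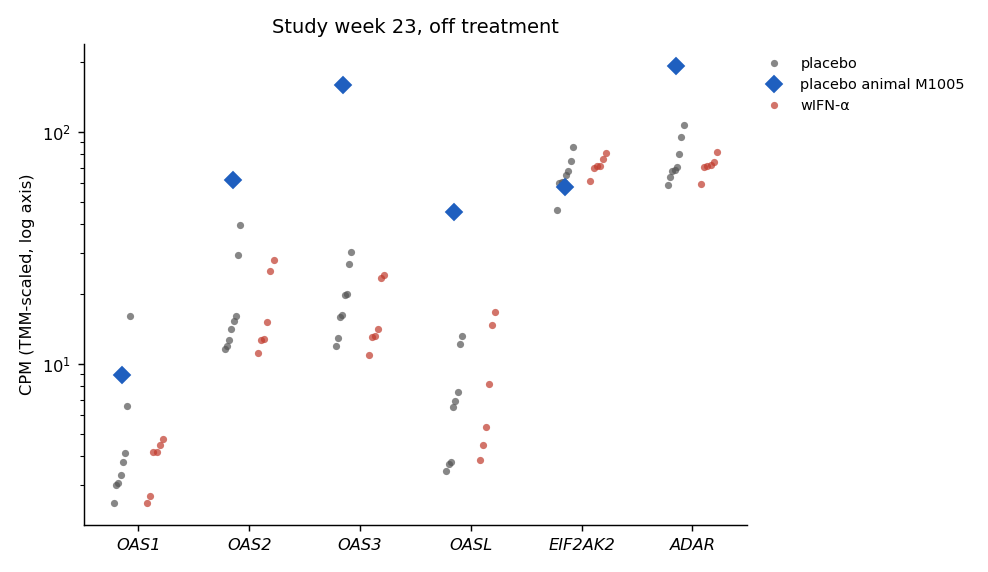
TMM-scaled CPM (log axis) of the 6 genes at week 23, off treatment, for 9 placebo (grey, with M1005 as a blue diamond) and 6 wIFN-α animals (red). M1005 lies above all other animals for OAS2, OAS3, OASL and ADAR, below the highest placebo animal for OAS1, and inside the group for EIF2AK2.

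M1005 had received placebo throughout. Its OAS3 level was between 11.7 and 17.4 CPM at the 7 earlier weeks and 159 CPM at week 23, when the other 8 placebo animals held 11.9 to 30.4 CPM. OASL stood at 45.04 CPM (others 3.44 to 13.1), OAS2 at 62.1 CPM (others 11.6 to 39.5) and ADAR at 193 CPM (others 59.0 to 107). These were 8.81, 6.74, 4.22 and 2.77 times the median of the others. OAS1, at 8.92 CPM or 2.52 times that median, was exceeded by M1008 with 16.1 CPM. EIF2AK2 (57.8 CPM, 0.918 times) was inside the range, as were 6 of 7 genes of the RNA sensing list, among them IFIH1 with 7.66 CPM (others 6.26 to 19.5). DDX58 was the exception with 91.0 CPM (others 49.3 to 69.7). In treated animals, by contrast, EIF2AK2 and IFIH1 rose together with the OAS genes. The summed hepatocyte markers of this biopsy were 59567 CPM (others 73042 to 139729) and the T and NK markers 128 CPM (others 68.7 to 222), and their part in these levels was not tested.

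Placebo animals also differed from one another in the median over their own compared biopsies. By this median M1008 was highest for OAS1 (6.65 CPM, against 3.91 CPM for the median animal of 12). M1010 and F1021 were the highest for OAS2 (54.8 and 53.6 against 24.4 CPM), OAS3 (37.2 and 34.1 against 16.9 CPM) and OASL (15.8 and 18.1 against 5.80 CPM). The M1010 medians rest on weeks −3, 0, 3 and 7 only, where OAS2 was at 67.2, 74.4, 42.3 and 33.9 CPM. A later M1010 biopsy, of label week 18 and not compared, held 15.9 CPM of OAS2, 15.6 of OAS3 and 6.67 CPM of OASL. Across the 12 animals' medians OAS2, OAS3, OASL and ADAR went together with rho between 0.76 and 0.89 in each pair, whereas OAS1 had rho between 0.13 and 0.55 with them and EIF2AK2 between 0.32 and 0.45. OAS1 and EIF2AK2 had rho = −0.21 with each other. These are descriptions over animals that share the sequencing run design, with no test.

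The partner genes of the OAS enzymes were read from lists written from general knowledge. AKAP7, a member of the 2H phosphoesterase family that includes enzymes degrading oligoadenylates, rose at all 5 weeks by 0.77 to 1.01 on the log2 scale. Of the other oligoadenylate-degrading enzymes, PDE12 differed by 0.21 to 0.55 (edgeR adjusted p 9.1e-07 to 0.157). It stayed under the fold limit and was called at no week. ENPP1 was called lower at week 0 only (log2 differences −0.80 to −0.19 over the weeks). ABCE1, a ribosome recycling factor on the same list, was called at no week (−0.20 to −0.02). So 1 of these 4 genes was called higher at each treated week, beside 7.24% to 13.4% of all genes.

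Genes around PKR were called at few weeks. Of 20 genes of the kinase's surroundings (the eIF2 and eIF2B subunits, the other eIF2α kinases, the phosphatase subunits PPP1R15A and PPP1R15B, and the downstream factors), 3 were called higher at week 0, none at weeks 3, 7 and 11 and 1 at week 15, beside 10.3%, 7.24%, 11.4%, 12.6% and 13.4% of all genes, and 1 was called lower at week 11 (7.98% of all genes). None was called at 3 or more weeks. Calls also needed a fold change above 1.5, and some smaller differences passed on adjusted p alone. TARBP2 was lower at all 5 weeks (−0.34 to −0.19, edgeR adjusted p 0.00193 to 0.0417). EIF2B5 was higher (0.12 to 0.31, edgeR adjusted p 0.000514 to 0.332). The subunits EIF2B1, EIF2B2, EIF2B3 and EIF2B4 went the other way, with means over the treated weeks of −0.25, −0.16, −0.22 and −0.13. Their smallest edgeR adjusted p were 0.00613, 0.00829, 0.00151 and 0.0223. The largest mean rise of the list was that of EIF2S2 (0.37), which was called at 2 weeks. The share of all genes that passed on adjusted p alone was not computed. The list's median difference lay between −0.11 and 0.07 on the log2 scale at the treated weeks, where the median over all tested genes lay between −0.04 and −0.01. ATF4, the transcription factor translated when eIF2α is phosphorylated, differed by −0.14 to 0.27 with adjusted p of at least 0.113, and DDIT3 (CHOP) was called at 1 week.

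Of 8 listed genes of RNA editing and double-stranded RNA binding besides ADAR, the only one called at any treated week was ADARB1 (ADAR2), the second editing deaminase, and it was lower at all 5, by 0.63 to 1.05 on the log2 scale (adjusted p 7.82e-06 to 0.0165), beside 3.54% to 10.1% of all genes called lower. It thus moved opposite to ADAR. DHX9, a helicase that unwinds double-stranded RNA, differed by −0.01 to 0.25, and the interleukin enhancer-binding factor ILF2 by −0.22 to −0.02. Among 7 RNA sensors and their adaptors, 6 were called higher at every treated week, beside 7.24% to 13.4% of all genes called higher. The receptors ZBP1 (3.39 to 6.12), TLR3 (4.69 to 5.09), IFIH1 (4.02 to 4.28) and DDX58, which encodes RIG-I (3.17 to 3.34), had the largest differences, and MAVS, the adaptor below the RIG-I-like receptors, was not called at any treated week.

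**Figure D5:**
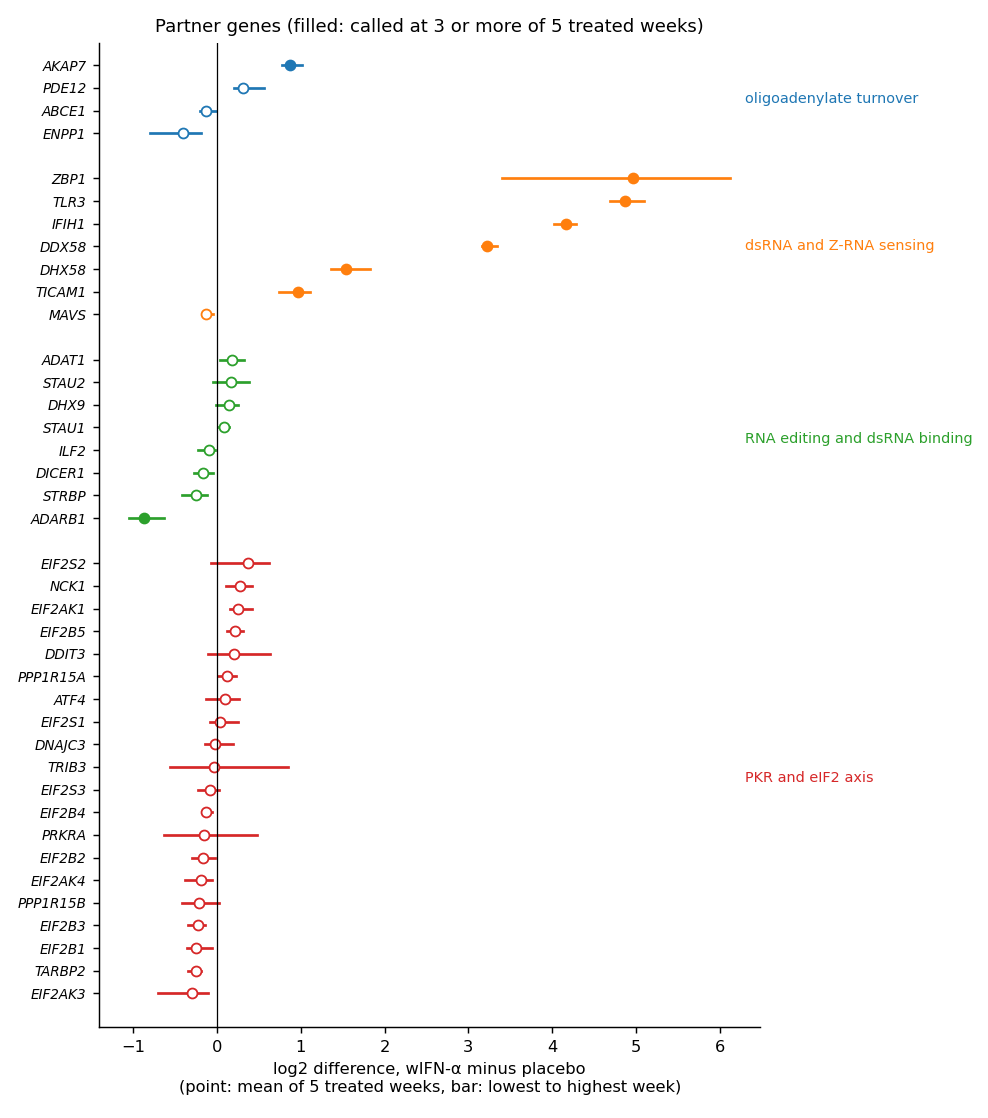
Log2 difference between wIFN-α and placebo animals for the partner genes, by list. Points are means of the 5 treated weeks, bars run from the lowest to the highest week, and filled points were called at 3 or more of these weeks. Filled points are AKAP7, 6 of 7 RNA sensing genes, and ADARB1 on the lower side; no gene of the PKR and eIF2 list is filled.

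Likeness of pattern was measured as Spearman's rho over the 45 biopsies of wIFN-α animals at weeks 0 to 15, which repeat 11 animals and share the change of dose. Among 13793 genes the closest to OASL were USP18 (rho 0.88), IFIT1 (0.88) and IFIT1B (0.84), all interferon-induced. The closest to OAS1 were ZMYND15 (0.85), TMEM132A (0.83) and SLC15A3 (0.81), to OAS2 SHISA5 (0.87), THAP11 (0.86) and GTPBP2 (0.84), and to OAS3 C7orf49 (0.79), LRP10 (0.79) and C12orf77 (0.77). EIF2AK2 was closest to OMA1 (0.88), CTNNA1 (0.86) and TNFSF10 (0.85), the last an interferon-induced death ligand, and ADAR to RALGPS1 (0.76), LINC00167 (0.76) and NFATC2IP (0.74). Within the 6 genes the closest pair was OAS2 and OAS3 (0.69), followed by OAS1 and OASL (0.65), and the least alike were OAS3 and ADAR (0.20).

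A sequencing lane number is the only batch label in the titles, and no flow cell is named. Different biopsies share both barcode and lane number, so 1 lane number pools several flow cells and is only a rough batch label. In 21 combinations of a treated week and a lane number that held both arms, the wIFN-α animals lay above the placebo animals in all 21 for EIF2AK2. For each of the other 5 genes this held in 20, the exception being week 3 in lane 2, which held F1013, M1012 and 1 placebo animal, M1008. EIF2AK2 counted as separate there because F1013, with 75.0 CPM, lay above M1008 with 54.5 CPM. The highest placebo animal of that week held 80.3 CPM. Some combinations held only 1 animal per arm, and the share over all genes was not computed. Averaged over the treated weeks against the placebo mean of the week, as log2(CPM + 1), the difference over 7 lanes ran from 3.45 to 5.68 for OAS1, 3.60 to 4.85 for OAS2, 3.64 to 4.998 for OAS3, 5.61 to 7.59 for OASL, 1.15 to 1.66 for EIF2AK2 and 1.83 to 2.31 for ADAR.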

How the data were processed

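Liver biopsies gave paired-end libraries of poly(A) RNA. Per the labels and the study's methods, the authors mapped reads with Bowtie2 to their own woodchuck transcriptome assembly, whose contigs are named by homology, and counted them with SAMtools. Versions, and whether counting used strand, are not given in the sources used here. The deposited values of each of the 203 runs are expected counts per gene without normalization (118 of 3368022 nonzero entries are not whole), with RPKM beside them, which the authors made from the count, gene length and run total and which served here only to derive gene lengths.

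Runs of a biopsy were summed (38 of 164 biopsies had more than 1), rounded, and the virus entry was left out. Of the biopsies, 149 were compared, 7 of M1004 and 8 of other weeks or taken at death were not. Counts were analysed in R 4.3.3 with edgeR 4.0.16 (TMM, filterByExpr, quasi-likelihood test, Benjamini-Hochberg adjustment over all genes), with 1 fit per week and 1 fit of all weeks for changes between weeks. Standard errors were taken as the effect divided by the root of F, and 95% intervals from the standard error. DESeq2 1.42.0 and limma-voom 3.58.1, RLE, no filter, single runs, sex, M1004, the animal as a replicate block and single animals left out were alternatives. The fits were tested on simulated data.

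The labels give each biopsy's animal, so biopsies of an animal are paired across weeks. After subtraction of group means, 450 such pairs correlated with a median of 0.312 across 13916 genes, and biopsies of different animals with a median of −0.00535. Placebo animals serve as controls at several weeks. In the fits of single weeks the p-values measure spread between animals. The main fit of all weeks, without the animal as a block, treated biopsies of the same animal as independent. Its p-values for changes between weeks therefore measure spread between biopsies, with the pairing ignored. Depth sets the precision: the lowest OAS1 level, 0.279 CPM, rests on few reads, and levels on treatment on many more.

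The 6 genes and the lists were chosen with earlier results of these data known. Named besides the 6 genes are list members called at 3 or more of 5 treated weeks (up to 4 per list and direction), the 3 genes most alike to each, and a few list members named by role after their values were seen. Correlations of week 7 with week 15 and animals followed singly were also chosen after seeing levels. Own changes used log2(CPM + 0.1). Some genes of the lists are not reported here. A search for a motif in promoters was not run, since no sequence was used here.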

Additional observations from a re-analysis of the deposited data

Results flagged for a closer look

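Single animals lay far from the rest of their group (Dixon's criterion) in 12 cases. Chance gives about 1 such case in 20 independent groups, but these groups are not independent, and several cases share 1 biopsy. At week 3 F1013 was the low animal for OAS3 (12.8 CPM), OASL (3.25 CPM) and ADAR (76.5 CPM) on wIFN-α. At week 23 the placebo animal M1005 was the high one for OAS3 (159 CPM), OASL (45.04 CPM) and ADAR (193 CPM), and M1008 for OAS1 (16.1 CPM). The placebo animal F1021 was high at week 11 for OAS2 (54.9 CPM), OAS3 (39.1 CPM) and OASL (20.5 CPM). Among treated animals, F1014 was high for OAS3 at week 15 (628 CPM) and M1002 for ADAR at week 7 (475 CPM).

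The OAS1 difference changed between time points, by 1.36 on the log2 scale between week 15 and weeks 0 and 3, by the test of that difference given in the report.

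Biopsies outside the comparisons held levels above every placebo biopsy of the 8 weeks. In M1004, which was left out, this held for 6 of 6 genes at each of the 5 treated weeks, with 100.3 CPM of OAS1 at week 0 and 205 CPM at week 7, and for none at weeks −3 and 19. It held for 6 genes in the biopsy of M1006 at label week 3 and in that of M1007 at death, and for 5 genes in that of F1023 at death (all but ADAR), or 6 genes when the M1005 biopsy of week 23 was left out of the placebo biopsies.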

How the results depend on the processing

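At the 5 treated weeks the values of the 6 genes kept direction and call in all 612 combinations of gene, week and alternative, including DESeq2, limma-voom, RLE, no filter, only the run with most reads per biopsy, M1004 put back, biopsies rich in skeletal muscle left out, animals left out in turn, and the members left out of library sizes (an alternative chosen after seeing the data, as were those on M1005, on the F1013 biopsy and on weeks 0, 3 and 15 alone). The call of OAS1 for week 15 against weeks 0 and 3 was lost as given in the report. The number of members called was then 0 in the fit of weeks 0, 3 and 15 alone and 0 to 1 when wIFN-α animals were left out in turn, fits which hold fewer samples.

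Among differences that were not called, some crossed 0. With the animal as a replicate block (limma-voom) the values for week 3 minus week 0 were −0.067 (ADAR), −0.063 (OAS2), −0.43 (OAS3) and −0.44 (OASL), those at week 19 were −0.026 (OAS2) and −0.080 (OAS3), and OAS1 at week −3 was 0.048. With the edgeR replicate block, week 3 minus week 0 was −0.0094 (ADAR) and −0.068 (OAS3), and week 15 minus week 7 was −0.034 (OAS2). The replicate block changed no call. OAS1 at week −3 was 0.049 with M1004 and 0.11 in limma-voom, and ADAR for week 3 minus week 0 was −0.0078 without the muscle-rich biopsies. Without the F1013 biopsy of week 3, EIF2AK2 was 0.065 for week 3 minus week 0 and −0.034 for week 7 minus week 3, and OAS2 was −0.10 for the latter. OASL at week 23 was 0.33 without M1005. The cause was not tested.

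Leaving out single animals gave −0.031 to 0.16 (ADAR), −0.085 to 0.10 (EIF2AK2) and −0.023 to 0.24 (OAS3) for week 3 minus week 0, −0.073 to 0.17 (EIF2AK2) and −0.12 to 0.17 (OAS2) for week 7 minus week 3, and −0.035 to 0.062 (OAS2) and −0.14 to 0.011 (OASL) for week 15 minus week 7. At week −3 it gave −0.11 to 0.027 (EIF2AK2) and −0.11 to 0.057 (OAS1), at week 19 −0.085 to 0.44 (OAS1), −0.037 to 0.30 (OAS2) and −0.061 to 0.17 (OAS3), and at week 23 −0.63 to 0.33 (OASL). Low counts of OAS1 and OASL in placebo livers limit the precision of their folds.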

Other observations

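Of the biopsies taken at death, that of the wIFN-α animal F1020 held 12.8 CPM of OAS1, 52.3 of OAS2, 41.1 of OAS3, 23.9 of OASL, 52.3 of EIF2AK2 and 90.9 CPM of ADAR, all within the range of the placebo biopsies. That of M1007 held 93.9 CPM of OAS1, 674 of OAS2, 569.7 of OAS3, 1090.2 of OASL, 193 of EIF2AK2 and 385 CPM of ADAR. F1023 lay between them, with 48.3 CPM of OAS1, 337 of OAS2, 224 of OAS3, 244 of OASL, 91.5 of EIF2AK2 and 182 CPM of ADAR. The placebo animal F1024 held 2.26 CPM of OAS1 and 9.02 CPM of OASL. The time from the last dose to these biopsies is not given in the labels used here.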
